A study of Mus musculus with 20 samples.

Results

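The pre-B cell receptor genes described here are Igll1, Vpreb1, Vpreb2 and Vpreb3, of the surrogate light chain family, and Cd79a and Cd79b, the signalling pair of the receptor. They were chosen by name, and are 6 of the 56239 genes counted. All 6 passed the filter of at least 10 counts in at least 2 libraries, which left 16601 genes for testing. RNA bound to chromatin, rich in nascent transcripts, was sequenced in B3 cells, a mouse pre-B line that came from a lymphoma. The cells were retrovirally transduced with IKZF1-ERt2 and sorted for a linked green fluorescent protein. IKZF1-ERt2 enters the nucleus when 4-hydroxytamoxifen (4-OHT) binds its estrogen receptor part. One group was untreated (0 h), and 9 groups received 500 nM 4-OHT for 30 min, 1 h, 2 h, 6 h, 12 h, 15 h, 18 h, 21 h or 24 h. Each of the 10 groups had 2 libraries from the same transduced line, and no group had 4-OHT without the fusion protein, so that induction of IKZF1 and exposure to 4-OHT cannot be told apart. Nothing in the labels says that replicates were separate cultures, so p-values measure the spread between these libraries, which may be technical.

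The surrogate light chain is made of a VpreB protein and lambda 5, the product of Igll1. It stands in for the immunoglobulin light chain in pre-B cells, where it pairs with the mu heavy chain to form the pre-B cell receptor, the checkpoint for a productive heavy chain. Ig alpha (Cd79a) and Ig beta (Cd79b) carry the signal of this receptor and of the mature B cell receptor. The surrogate light chain genes are normally silenced as pre-B cells differentiate, whereas Cd79a and Cd79b stay on through the B lineage. IKZF1 (Ikaros) is a zinc finger transcription factor required for B lymphopoiesis.

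The promoters of the genes are shown first, because the windows of Vpreb1 and Vpreb2 shared a nearly identical stretch. The fold changes measured for these paralogs differed at 6 h and 24 h, but Vpreb2 had few counts, some of which may come from Vpreb1. Windows of 250 bases before to 50 after the RefSeq start (GRCm38.p6) were found for 5 of the 6 genes, with the exception of Cd79b. The bases before the start are printed 5′ to 3′ on the strand of the gene, as far as no annotated first exon begins. Capitals mark GGGAA or its complement TTCCC, the core of the sequence that Ikaros proteins recognise. The printed stretches are chr16:16863986-16864235 (minus strand) for Igll1, chr16:16869256-16869505 (minus strand) for Vpreb1, chr16:17980315-17980427 (plus strand) for Vpreb2 and chr7:24897247-24897380 (plus strand) for Cd79a. The Vpreb1 stretch also holds an exon of a longer noncoding transcript of that gene in GENCODE M21.
Igll1: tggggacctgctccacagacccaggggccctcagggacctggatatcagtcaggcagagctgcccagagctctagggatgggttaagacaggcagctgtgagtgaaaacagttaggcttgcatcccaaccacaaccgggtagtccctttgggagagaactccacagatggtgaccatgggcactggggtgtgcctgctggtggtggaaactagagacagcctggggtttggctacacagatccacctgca
Vpreb1: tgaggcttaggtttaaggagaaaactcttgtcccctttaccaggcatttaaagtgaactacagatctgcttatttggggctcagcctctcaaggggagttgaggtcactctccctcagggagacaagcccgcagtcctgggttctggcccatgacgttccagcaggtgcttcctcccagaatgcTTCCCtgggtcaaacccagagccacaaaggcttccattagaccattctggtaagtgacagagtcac
Vpreb2: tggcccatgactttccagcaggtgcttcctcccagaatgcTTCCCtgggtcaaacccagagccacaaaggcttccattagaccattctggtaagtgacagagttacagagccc
Cd79a: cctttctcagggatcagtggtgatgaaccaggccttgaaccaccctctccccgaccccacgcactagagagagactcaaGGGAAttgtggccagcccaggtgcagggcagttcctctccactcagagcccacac

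The stretches of Vpreb1 and Vpreb2 aligned over 103 bases, of which 102 were identical (99.0%). Over both whole windows, 153 of 156 aligned bases were identical (98.1%). The aligned bases were 145 to 300 of the Vpreb1 window and 1 to 156 of the Vpreb2 window. The rest of either window lay outside this alignment. On both strands of the windows, GGGAA was found 0 times for Igll1, 1 time for Vpreb1, 2 times for Vpreb2, 2 times for Vpreb3 and 1 time for Cd79a. GGGAA is stricter than the motifs that the study counted in accessible sites, GGAA and GGGA with their complements. The printed Igll1 stretch holds both of these shorter motifs. Of the 32851 promoter windows of this length in the RefSeq table, 62.7% held GGGAA, so that a match is common. The longer TGGGAA, which contains GGGAA, was found in the Vpreb2 window only among the 5, and in 25.6% of all windows. CCCNNGGG, the core of the EBF1 sequence, was found in the Igll1 window only among the 5, and in 13.7% of all windows. CANNTG, the E-box of E2A proteins, counted once per site since it is its own complement, was found 5 times for Vpreb3, 3 for Igll1, 2 each for Vpreb2 and Cd79a, and 1 for Vpreb1. All told 72.3% of windows held an E-box, and 2.10% held at least 5. These matches describe the letters of the windows and are not evidence of binding.

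The genes lie on 4 chromosomes. Igll1 (ENSMUSG00000075370, chr16:16860671-16863985, GRCm38/mm10, minus strand) and Vpreb1 (ENSMUSG00000059305, chr16:16868403-16870843, minus strand) are neighbors, 4418 bases apart. Vpreb2 (ENSMUSG00000059280, chr16:17980428-17981273, plus strand) lies elsewhere on the same chromosome. Vpreb3 (ENSMUSG00000000903) is at chr10:75943057-75949657 on the plus strand, Cd79a (ENSMUSG00000003379) at chr7:24897381-24902197 on the plus strand and Cd79b (ENSMUSG00000040592) at chr11:106311341-106314762 on the minus strand. The 5′ end of Vpreb1 overlaps that of Top3b on the opposite strand by 108 bases, and the pseudogene Gm16221 lies on the opposite strand inside Vpreb3 over 393 bases. Among stretches of 75 bases in the annotated transcripts, 136 are shared by Vpreb1 and Vpreb2, which is 10.9% of those of Vpreb1 and 19.9% of those of Vpreb2. Counts of Vpreb1 and Vpreb2 are therefore uncertain, as the handling of shared reads is not given in the sources used here. For Vpreb2 the uncertainty can exceed its shared part. At 0 h Vpreb1 had 846 and 748 counts and Vpreb2 17 and 19.

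The libraries held 33296158 to 46868954 counts. Of 12 pre-B markers, 10 averaged at least 1 CPM, whereas none of 6 T cell, 6 myeloid or 4 erythroid markers did, with summed levels of 0.712 to 2.19, 0.812 to 2.89 and 0.156 to 0.654 CPM per library. The remaining pre-B markers, Rag1 and Rag2, were listed at 0 in all 20 libraries. So was Slc7a5, an amino acid transporter of growing cells, and a 0 is therefore not read as absence. Counts at Ikzf1, which do not separate the fusion from the endogenous gene, ran from 4742 to 9436 CPM. Replicates differed by more than counting error most at 12, 18 and 21 h, with chi-square values of 9.95, 14.9 and 4.78 per degree of freedom against 1.26 to 2.58 at the other times. In these bulk samples, fewer cells of a type and less RNA per cell cannot be told apart.

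The first question was which of the genes responded to IKZF1 induction, and when. Levels are CPM, counts scaled to library size with edgeR's TMM factors. Each time was compared with 0 h by the quasi-likelihood test of edgeR, and p-values were adjusted by the Benjamini-Hochberg method over the 16601 genes. A called gene had an adjusted p below 0.01 and a fold change of more than 2. Igll1 and Vpreb1 fell without return, Vpreb3 settled at about the fold threshold, Cd79b was higher from 1 h on and Cd79a was lower before it rose. Vpreb2 was near the limit of detection throughout.

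Igll1, which encodes lambda 5, had by far the highest level of the surrogate light chain genes in untreated cells and the deepest fall. Its libraries held 167 and 170 CPM at 0 h, 64.1 and 62.3 after 30 min, 18.1 and 16.1 after 1 h, and 10.6 and 9.53 after 2 h. Later they held 2.54 and 2.78 CPM after 6 h, 1.52 and 1.47 after 12 h, 0.979 and 1.26 after 15 h, 1.26 and 1.37 after 18 h, 1.22 and 0.950 after 21 h, and 1.07 and 0.896 after 24 h. All induced libraries lay below both untreated ones, and the groups at 15 h, 21 h and 24 h overlapped each other, while both libraries at 18 h lay just above them. On the log2 scale Igll1 changed by -1.42 at 30 min (adjusted p = 1.92e-13, standard error 0.0558), and -7.42 at 24 h (adjusted p = 9.12e-24, standard error 0.0973). Of the level at 0 h, 37.4% remained after 30 min, 10.2% after 1 h, 1.58% after 6 h and 0.584% after 24 h. The fall continued in steps that were themselves called, with log2 changes of -1.88 from 30 min to 1 h (adjusted p = 2.42e-15) and -1.91 from 2 h to 6 h (adjusted p = 2.78e-12).

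Vpreb1, which encodes the VpreB partner of lambda 5, also fell, and less far. It had 18.3 and 16.8 CPM at 0 h, 9.53 and 10.0 after 30 min, 4.76 and 5.92 after 1 h, and 3.34 and 3.26 after 2 h. At 6 h it had 1.00 and 1.12 CPM, and from 12 h to 24 h its libraries ranged from 0.237 to 0.633 CPM. Every induced library was below the untreated ones. The log2 fold change of Vpreb1 at 30 min was -0.84 (adjusted p = 2.71e-07, standard error 0.0825), short of the fold threshold, and it was called from 1 h on (-1.73, adjusted p = 7.76e-13). It reached -4.04 at 6 h and -5.56 at 24 h (adjusted p = 1.76e-18, standard error 0.156). By 24 h the 2 libraries held 13 counts each, so that the late values of Vpreb1 carry more counting error than those of Igll1.

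**Figure D1:**
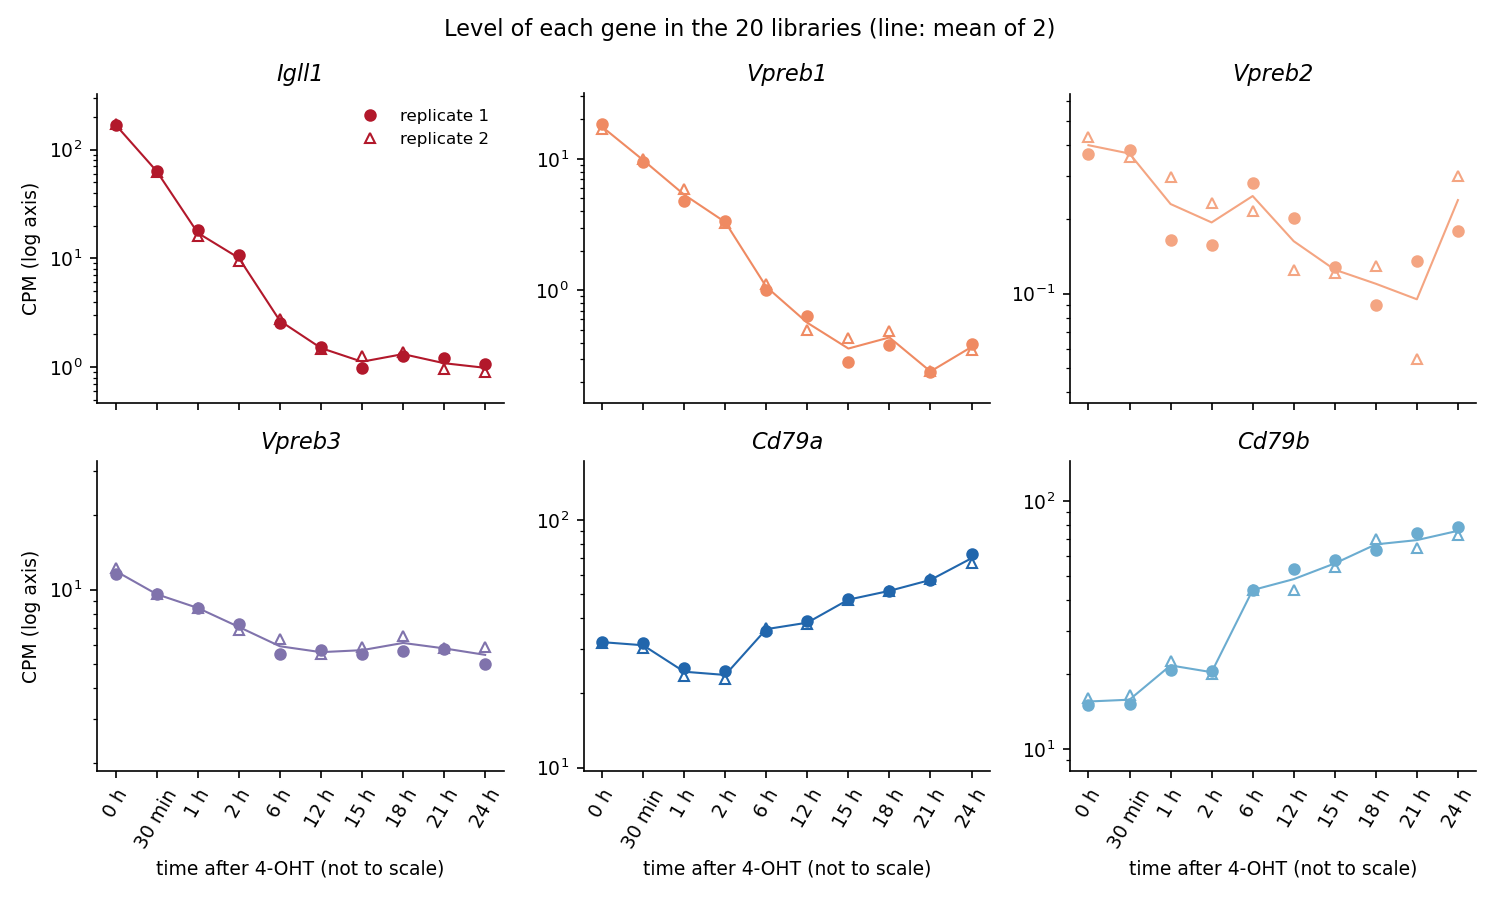
CPM (log axis, scaled separately for each gene) of the 6 genes in each of the 20 libraries, against time after 4-OHT (categories, not to scale). Filled circles are replicate 1, open triangles replicate 2 and the line their mean. Igll1 goes from 167 and 170 CPM to about 1 CPM, Vpreb3 levels off, Cd79b rises to 78.5 and 73.3 CPM, and the Vpreb2 replicates scatter below 0.5 CPM.

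Vpreb2, the paralog of Vpreb1 whose promoter is shown above, was at the edge of detection. It had 17 and 19 counts in the untreated libraries (0.367 and 0.428 CPM) and 2 to 16 counts in each induced library. The log2 fold change of Vpreb2 was -0.11 at 30 min (adjusted p = 0.896), -1.01 at 2 h (adjusted p = 0.0292) and -0.68 at 6 h (adjusted p = 0.104), none of which was called. It was called down at 12 h (-1.29, adjusted p = 0.00829), 15 h (-1.64), 18 h (-1.84) and 21 h (-2.09, adjusted p = 0.000559), with standard errors of 0.415 to 0.497. At 24 h its libraries held 0.179 and 0.299 CPM (log2 fold change -0.71, standard error 0.382, adjusted p = 0.102), and the step from 21 to 24 h, 1.38, was not called (adjusted p = 0.111). The whole course of Vpreb2 passed the F test of the 9 induced times together (adjusted p = 0.00224). The uncertainty from reads shared with Vpreb1 applies to all these values.

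Vpreb3, a VpreB relative whose product has been found with immunoglobulin chains inside B lineage cells, fell early and to a plateau. It had 11.6 and 12.2 CPM at 0 h, 9.59 and 9.56 after 30 min, 8.40 and 8.45 after 1 h, 7.25 and 6.87 after 2 h and 5.51 and 6.30 after 6 h. From 12 h to 24 h the libraries stayed between 5.01 and 6.51 CPM, below both untreated libraries. The log2 fold change of Vpreb3 was -0.31 at 30 min (adjusted p = 0.0107), -0.75 at 2 h (adjusted p = 1.08e-07, standard error 0.0836) and -1.12 at 24 h (adjusted p = 1.92e-10, standard error 0.0897). Its values lay so close to the fold threshold that it was called at 6 h (-1.005), 12 h, 15 h, 21 h and 24 h but not at 18 h (-0.97, adjusted p = 1.07e-09). The call at 6 h was lost without 0 h replicate 2 (-0.97) or without 6 h replicate 1 (-0.91). No step of Vpreb3 between neighboring times was called, nor was the change from 6 h to 24 h (-0.11, adjusted p = 0.320).

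Cd79a, which encodes Ig alpha, was lower at 1 and 2 h and higher from 6 h on. Its libraries held 32.2 and 32.0 CPM at 0 h, 31.9 and 30.4 after 30 min, 25.3 and 23.4 after 1 h, and 24.4 and 22.9 after 2 h. They then held 35.7 and 36.7 CPM after 6 h, 39.0 and 37.9 after 12 h, 47.9 and 47.3 after 15 h, 51.5 and 51.8 after 18 h, 56.9 and 57.5 after 21 h, and 72.9 and 67.0 after 24 h. The libraries at 1 and 2 h all lay below the untreated ones, and those from 6 h on above them. The log2 fold change of Cd79a was -0.39 at 1 h (adjusted p = 3.42e-06, standard error 0.0546) and -0.44 at 2 h (adjusted p = 5.89e-07, standard error 0.0552), both within the fold threshold. At 6 h the change was only 0.17 (adjusted p = 0.00633 from edgeR). With DESeq2 size factors in that test the adjusted p was 0.0143, above the threshold. Cd79a was called up at 24 h only (1.12, adjusted p = 1.09e-14, standard error 0.0516). From 2 h to 24 h it rose by 1.57 on the log2 scale (adjusted p = 9.44e-17). With library totals only in place of TMM factors, the 24 h value was 0.87 and not called, under a scaling that put the median of all tested genes at -0.27.

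Cd79b, which encodes Ig beta, had a level like that of untreated cells at 30 min and then rose. Its libraries held 15.0 and 16.1 CPM at 0 h, 15.1 and 16.5 after 30 min, 20.9 and 22.6 after 1 h and 20.7 and 20.1 after 2 h. At 6 h it had 43.6 and 43.9 CPM, after 12 h 53.0 and 43.8, after 15 h 57.6 and 54.5, after 18 h 63.4 and 70.4, after 21 h 74.5 and 64.7, and after 24 h 78.5 and 73.3. The groups at 0 h and 30 min overlapped, and every later library was above both untreated ones. The log2 fold change of Cd79b was 0.03 at 30 min (adjusted p = 0.908), 0.48 at 1 h (adjusted p = 0.000158) and 0.39 at 2 h (adjusted p = 0.00103), and it was called up from 6 h (1.49, adjusted p = 1.84e-12, standard error 0.0864) to 24 h (2.29, adjusted p = 2.69e-16, standard error 0.0854). Of the steps between neighboring times, that from 2 to 6 h, 1.10, was called (adjusted p = 1.13e-09).

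Against 0 h, 1 of the 6 genes was called after 30 min, in the downward direction, as were 0.410% of all tested genes, while 0.0542% were called upward. After 1 h 2 of the 6 had fallen, among 4.84% of all genes that fell and 2.33% that rose, and after 2 h again 2, among 6.91% and 6.25%. After 6 h 3 had fallen and 1 had risen (9.13% and 10.9% of all genes), after 12 h 4 and 1 (9.92% and 13.2%), and after 15 h 4 and 1 (13.1% and 15.3%). After 18 h 3 had fallen and 1 had risen (17.6% and 19.1%), after 21 h 4 and 1 (19.4% and 20.1%), and after 24 h 3 and 2 (20.1% and 20.02%). The median log2 fold change of the 6 was -0.21 at 30 min, -0.88 at 2 h and -0.91 at 24 h, where the median of all tested genes was 0.01, 0.03 and -0.01. Between induced times, Igll1 was called down from 30 min to 1 h (3.08% of all genes down, 1.69% up), and from 2 h to 6 h Igll1 and Vpreb1 were down and Cd79b up (3.26% and 3.91%). From 2 h to 24 h Igll1 and Vpreb1 were down and Cd79a and Cd79b up (16.6% and 16.2%). From 6 h to 24 h Igll1 and Vpreb1 were still called down (12.8% of all genes), with log2 changes of -1.44 (adjusted p = 1.23e-07) and -1.52 (adjusted p = 4.31e-05), and none of the 6 up (10.9%). All 6 passed the F test over the whole course, as did 87.99% of all genes.

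**Figure D2:**
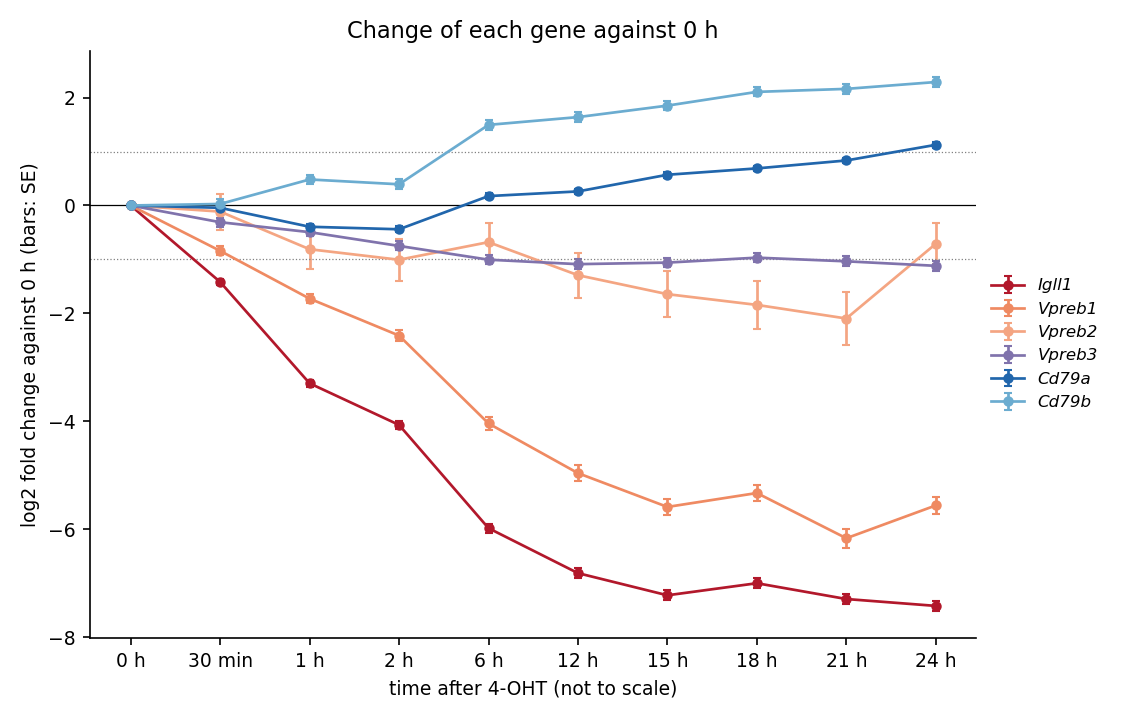
Log2 fold change of each gene against 0 h (y axis, bars are standard errors) by time after 4-OHT (categories, not to scale), with dotted lines at the fold threshold. Igll1 reaches -7.42 and Vpreb1 -5.56 at 24 h, Vpreb3 runs along the lower dotted line, and Cd79b crosses the upper one at 6 h, well before Cd79a.

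The half-maximal time, at which the mean course interpolated between time points first passed the midpoint of 0 h and its extreme, depended on the scale for the genes that fell far. On the linear scale Igll1 passed it at 23.8 min, Vpreb1 at 36.0 min and Vpreb3 at 53.9 min. On the log2 scale the same genes passed it at 89.9 min, 3.43 h and 76.2 min. Cd79b passed it at 4.73 h on the log2 scale and 8.51 h on the linear one, and Cd79a at 14.9 h and 17.5 h. On the log2 scale, the value for Vpreb2, 1.73 h, came apart into 0.916 h in replicate 1 and 8.49 h in replicate 2 and has little meaning. For the other genes the replicates gave 1.61 and 1.46 h for Igll1, 3.34 and 3.52 h for Vpreb1, 1.66 and 1.16 h for Vpreb3, 15.4 and 14.7 h for Cd79a, and 4.71 and 4.74 h for Cd79b. On the linear scale the replicates of Cd79b were farther apart, 7.99 and 12.2 h, and those of Cd79a gave 18.6 and 16.5 h. On either scale both Cd79 genes came after Igll1, Vpreb1 and Vpreb3. No test was made of these times.

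Levels of different genes were compared per kb of gene body, since intronic reads were counted. At 0 h the order was Igll1 (50.9 ± 0.629 CPM per kb), Vpreb1 (7.19 ± 0.415), Cd79a (6.66 ± 0.0349), Cd79b (4.54 ± 0.215), Vpreb3 (1.80 ± 0.0621) and Vpreb2 (0.470 ± 0.0506; SD, n = 2 here and in the rest of the paragraph). No neighbors in this order overlapped in their libraries. At 2 h Cd79b led (5.96 ± 0.132), before Cd79a (4.91 ± 0.230) and Igll1 (3.04 ± 0.232). At 6 h Vpreb3 (0.894 ± 0.0842) and Igll1 (0.803 ± 0.0504) did not differ beyond their spread. At 24 h the order was Cd79b (22.2 ± 1.07), Cd79a (14.5 ± 0.867), Vpreb3 (0.826 ± 0.0942), Igll1 (0.297 ± 0.0380), Vpreb2 (0.282 ± 0.100) and Vpreb1 (0.152 ± 0.0101), and there Igll1 and Vpreb2 overlapped. Vpreb3, the second lowest per kb in untreated cells, was the highest of the surrogate light chain family from 12 h on. Per kb of annotated exon the order at 0 h changed, with Cd79a (22.0 ± 0.115) before Vpreb1 (14.6 ± 0.846) and Vpreb3 (13.8 ± 0.477) before Cd79b (10.9 ± 0.514) (the gene body of Vpreb3 spans 6601 bases and its exons 859).

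**Figure D3:**
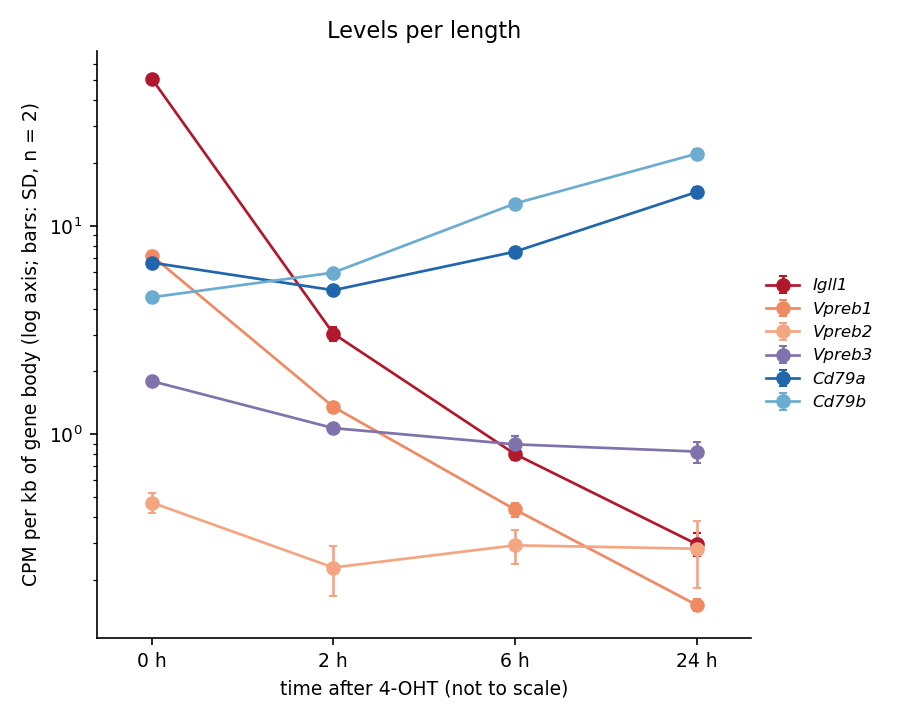
Mean CPM per kb of gene body (log axis; bars are the SD of 2 libraries) of the 6 genes at 0, 2, 6 and 24 h after 4-OHT (categories, not to scale). Igll1 falls from the top, 50.9 CPM per kb, to 0.297, while Cd79b rises from 4.54 to 22.2 and Vpreb3 and Igll1 meet at 6 h.

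Partner genes were then compared within each library, by limma on the log2 ratio of their levels, to ask whether subunits of one complex moved together. Adjusted p-values are over the ratios of all tested genes to the same partner. Igll1 and Vpreb1 themselves fell far, so that most tested genes changed against them. A small adjusted p for a ratio to either is therefore not particular to the pair. The ratio of Vpreb1 to Igll1 changed by 0.58 at 30 min on the log2 scale (95% interval 0.08 to 1.08, adjusted p = 0.0254), short of the threshold, by 1.67 at 2 h (1.17 to 2.17, adjusted p = 7.86e-11), 1.97 at 6 h (1.47 to 2.48, adjusted p = 1.34e-14) and 1.96 at 24 h (1.46 to 2.47, adjusted p = 1.77e-14). Igll1 had fallen more than Vpreb1 by 2 h, and the ratio at 6 and 24 h was about the same.

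The ratio of Cd79b to Cd79a changed by 0.07 at 30 min (95% interval -0.11 to 0.24, adjusted p = 0.737 from limma), 0.83 at 2 h (0.66 to 1.01, adjusted p = 4.13e-11), 1.32 at 6 h (1.14 to 1.49, adjusted p = 6.40e-17) and 1.16 at 24 h (0.99 to 1.34, adjusted p = 5.74e-16). Transcripts of the heterodimer did not move in parallel, and Cd79b gained on Cd79a until 6 h. The ratio of Vpreb2 to Vpreb1 changed by 0.74 at 30 min (-0.16 to 1.64, adjusted p = 0.123), 1.50 at 2 h (0.60 to 2.40, adjusted p = 0.00114), 3.39 at 6 h (2.49 to 4.29, adjusted p = 1.76e-13) and 4.73 at 24 h (3.83 to 5.63, adjusted p = 9.41e-25). The value at 2 h did not pass with a smaller prior count or without single libraries. The paralogs, which share part of their promoter windows, differed in fold change at 6 h and 24 h. Their levels per kb at 0 h were 7.19 CPM for Vpreb1 and 0.470 for Vpreb2. The ratio at 24 h rests on 6 and 11 counts of Vpreb2 and 13 of Vpreb1 in each library. That at 6 h rests on 12 and 10 counts of Vpreb2 and 43 and 52 of Vpreb1. The reads that both genes can share limit these ratios further.

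**Figure D4:**
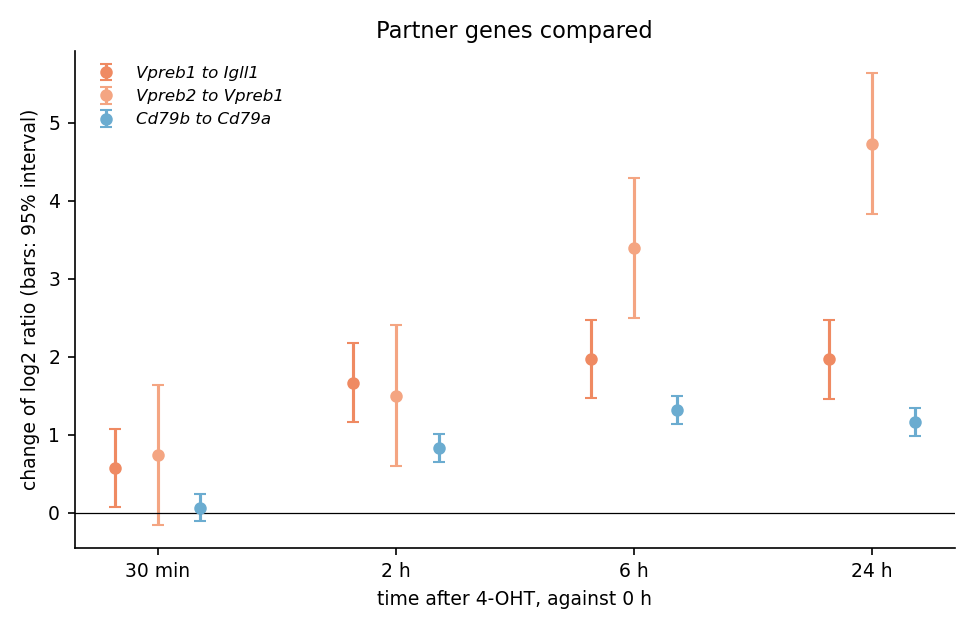
Change against 0 h of the log2 ratio of each gene to its partner (points, with 95% intervals from limma) at 30 min, 2 h, 6 h and 24 h after 4-OHT. Cd79b to Cd79a lies at 0.07 at 30 min and above 0.8 afterwards, Vpreb1 to Igll1 levels off near 2, and Vpreb2 to Vpreb1 goes on to 4.73.

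The genes around the members were examined next, to see whether a change was shared with the locus. Within 100 kb of both Igll1 and Vpreb1 lay 6 other tested genes, 3 of them processed pseudogenes. Of these, 2 were called down at 2 h, where none was up, and 24 h held 2 falls and 3 rises. Ppm1f, a protein phosphatase gene, fell from 140 CPM at 0 h, with a log2 fold change of -1.32 at 2 h and -1.63 at 24 h. In contrast Spag6l, a gene of sperm flagella, rose from 3.21 CPM by 2.73 on the log2 scale at 24 h, and the pseudogene Gm5768 from 1.20 CPM by 2.20. The remaining calls, named after their values were seen, were in pseudogenes below 1 CPM on average, Gm46540 (-1.67 at 2 h and -1.61 at 24 h) and Gm49644 (2.31 at 24 h). Top3b, the topoisomerase gene that overlaps Vpreb1, had a log2 fold change of -0.46 at 2 h and -0.31 at 24 h and was not called. Among all tested genes 6.91% were down and 6.25% up at 2 h, and 20.1% and 20.02% at 24 h. With 6 genes, nothing particular to the neighborhood is read from these counts, nor from those of the other members. Around Vpreb2, 0 of 7 tested genes were called at 2 h or 24 h by edgeR.

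Around Vpreb3, 2 of 8 tested genes were called down at 2 h and 4 at 24 h, and none up. Gm867, which starts 2385 bases from Vpreb3 on the opposite strand, had 8.62 CPM at 0 h and log2 fold changes of -1.58 at 2 h and -4.48 at 24 h. Chchd10, which encodes a mitochondrial protein, had log2 fold changes of -1.44 and -3.16 at these times, and at 24 h Mif, a cytokine gene, had -2.03 and Derl3, of protein degradation in the endoplasmic reticulum, -1.08. Among the called genes, Gm867 and Chchd10 were nearest to Vpreb3 and fell further than its own -1.12 at 24 h, a difference that was not tested. A call itself requires a deep fall. Gm5134 and Mmp11, 4857 and 6561 bases from Vpreb3, were not called and had smaller falls at 24 h (-0.57 and -0.65). Around Cd79a, 2 of 6 were down at 24 h and none up, with -1.37 for Rps19, a ribosomal protein gene, and -1.32 for Gm4881. Around Cd79b, 2 of 10 were down and 1 up, with 1.41 for Icam2, an adhesion molecule, -1.72 for Ftsj3, of ribosome biogenesis, and -5.44 for Tcam1, which averaged 0.628 CPM and was named after its values were seen. Neither Cd79 gene had a neighbor called at 2 h.

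Genes whose course was most like that of a member were found by Pearson's r of log2 CPM over the 20 libraries, among 12055 genes averaging at least 1 CPM. The libraries share their time points, so that any genes that change steadily correlate, and r is given as a description. The genes most like Igll1 were Gm38383 (r = 0.986), Pax7 (0.985), a paired box factor of muscle progenitors, and Vpreb1 (0.985). Those most like Vpreb1 were Tmem119 (0.989), Adgrg1 (0.986), an adhesion receptor, and Cdk6 (0.986), the cyclin-dependent kinase of early G1. For Vpreb3 they were Gm38383 (0.973), Mrgpra1 (0.972) and Igll1 (0.970), although Igll1 fell by 7.42 and Vpreb3 by 1.12 on the log2 scale at 24 h. Cited2 (0.994), Ifi203 (0.991) and Klra7 (0.991) were most like Cd79b, and Rab31 (0.988), Abtb1 (0.987) and Coq8a (0.985) most like Cd79a. Those like Cd79a had log2 fold changes of -0.57, -0.43 and -0.87 after 2 h, which turned to 1.57, 1.72 and 1.62 by 24 h. Cd79a and Cd79b correlated at 0.867 with each other, and Cd79b correlated at -0.948 with Igll1.

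Genes that work with the pre-B cell receptor were read from 3 lists. In the list of receptor signalling genes, 19 of 20 were tested, Slc7a5 being listed at 0. None was called at 30 min. At 2 h Ptpn6, a phosphatase (-1.73), Zap70, a kinase related to Syk (-1.60), Blnk and Plcg2 were down and Blk, a Src family kinase, was up (1.41), named here after their values were seen. Over all tested genes 6.91% were down and 6.25% up at that time. Blk averaged only 0.861 CPM over the 20 libraries and was not called at 24 h (-0.44). By 24 h 4 had fallen and 7 had risen, against 20.1% and 20.02% of all tested genes, with a median log2 fold change of -0.54 at 2 h and 0.55 at 24 h. Blnk, the adaptor that links the receptor to downstream kinases, went from 25.1 CPM at 0 h to 9.44 ± 0.161 at 2 h and 512 ± 22.3 at 24 h (SD, n = 2), with log2 fold changes of -1.41 (adjusted p = 7.05e-14) and 4.35 (adjusted p = 2.96e-24). Syk, the tyrosine kinase recruited by Ig alpha and Ig beta, rose by 2.55 on the log2 scale at 24 h (adjusted p = 4.47e-22), and Ighm, the mu heavy chain, by 1.76 (adjusted p = 1.03e-20). The largest falls at 24 h were in Pik3ap1 (-1.96), an adaptor for phosphoinositide 3-kinase, Plcg2 (-1.80), a phospholipase, and Vav1 (-1.07), an exchange factor, all with edgeR's adjusted p at or below 7.15e-12.

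Of 14 regulators of surrogate light chain genes, 13 were tested, Irf8 being listed at 0. At 30 min 1 was down, where 0.410% of all tested genes were down and 0.0542% up. It was Irf4, which was named after its values were seen and went from 9.64 to 3.85 ± 0.529 CPM (SD, n = 2). At 2 h 4 were down and 1 was up, where 6.91% of all tested genes were down and 6.25% up. Those down were Irf4 (-2.77), Id3 (-1.57), an inhibitor of E2A proteins, Runx1 (-1.27) and Ikzf3, and Bach2 was up (1.24). Id3 was near the limit of detection, with 0.407 CPM at 0 h and 0.136 at 2 h. By 24 h 1 had fallen and 3 had risen, of 13, where 20.1% of all tested genes fell and 20.02% rose, and the median log2 fold change was -0.02. Ikzf3, the Ikaros relative Aiolos, had a log2 fold change of 0.00 at 30 min, -1.13 at 2 h and -3.03 at 24 h (adjusted p = 3.53e-18 from edgeR). Bach2, a repressor of early B cells, rose by 3.48 on the log2 scale at 24 h, and Foxo1, of the recombination program, by 2.73. Pax5, the B lineage factor that activates Cd79a, rose by 1.88, from 1074 to 3947 CPM. Ebf1 and Tcf3, whose products activate Igll1 and Vpreb1 in the early B lineage, were not called at any of the 3 times. Ebf1 had a log2 fold change of 0.02 at 30 min, 0.52 at 2 h (adjusted p = 5.99e-12 from edgeR) and -0.32 at 24 h, and Tcf3 one of 0.25, -0.11 and -0.58.

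The third list held 7 genes, 6 immunoglobulin chains that replace or pair with the surrogate light chain and Cd74, the invariant chain of MHC class II, which is no receptor chain. Of the 7, 4 were tested. The conventional light chain genes Igkc, Iglc1 and Iglc3 were listed at 0 in every library. Iglc2, a lambda light chain constant gene, had 0 counts in both libraries at 0 h, 30 min and 1 h, 6 and 7 counts after 6 h, 43 and 31 after 12 h, and 241 and 203 after 24 h. Its level at 24 h, 6.35 ± 1.19 CPM (SD, n = 2), was at least 95.9-fold higher than a floor of 3 counts per library at 0 h, and this floor covers counting error only. Ighd, the delta heavy chain, rose by 1.23 at 2 h and 1.45 at 24 h on the log2 scale, and Cd74 fell by 1.45 at 24 h, from 1.80 CPM. In all, none was down and 1 was up at 2 h (6.91% and 6.25% of all tested genes). By 24 h Cd74 alone had fallen and the 3 tested immunoglobulin chains had risen (20.1% and 20.02% of all tested genes). The median log2 fold change was then 1.60, which is the same with Iglc2 at its bound. The rise of Iglc2 came after Igll1 had fallen: at 6 h Igll1 stood at 1.58% of its level in untreated cells.

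**Figure D5:**
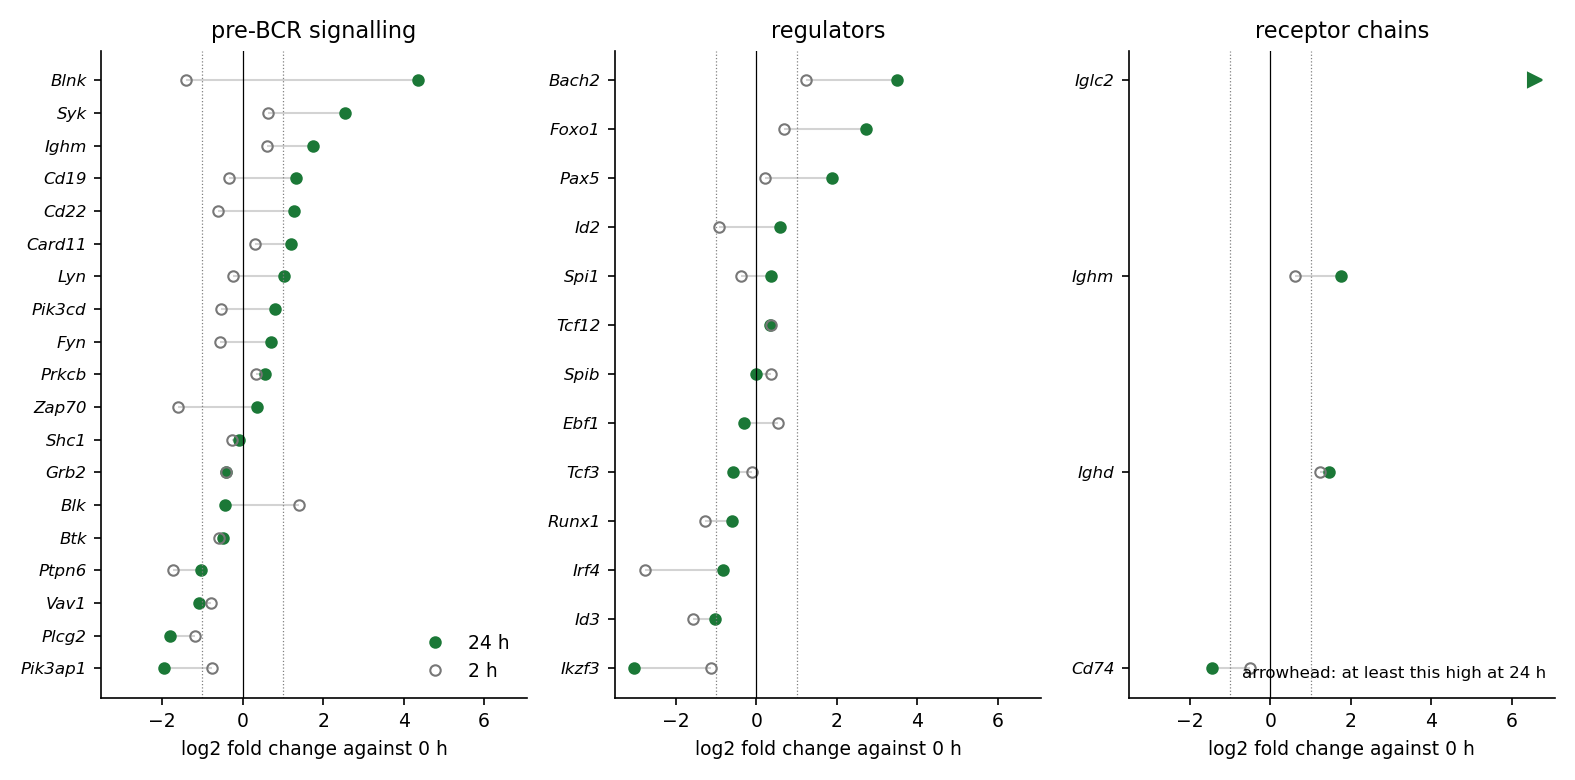
Log2 fold change against 0 h at 2 h (open circles) and 24 h (filled circles) of the tested genes of the 3 lists, with dotted lines at the fold threshold. The arrowhead of Iglc2 is a lower bound for 24 h. Blnk moves from -1.41 to 4.35 and Syk from 0.63 to 2.55, while Pik3ap1, Plcg2 and Ikzf3 go down.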

How the data were processed

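Chromatin-associated RNA of 20 libraries (10 time points of 2) was analysed, with 33296158 to 46868954 counts each. The authors used STAR in nf-core/rnaseq to align reads to mm10, and featureCounts, with intronic reads kept, to count them. They deposited the raw counts. The processing notes also name CASAVA. The library kit keeps strand, but the strand setting, the annotation and the handling of shared reads are not given in the sources used here.

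Time points and replicate numbers came from the sample titles. The test took genes that reached 10 counts in 2 or more libraries, in 1 edgeR 4.0.16 model (R 4.3.3; TMM factors, time point as a factor, quasi-likelihood test, Benjamini-Hochberg adjustment), with calls made below an adjusted p of 0.01 and beyond a fold change of 2. Partner genes were compared with limma 3.58.1 on log2 CPM (prior count 2). These steps were tested on simulated data. Positions came from GENCODE M21, which holds 55240 of the 56239 identifiers, and promoters from RefSeq.

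The genes and lists were chosen with earlier results of these data known. Beside the 6 genes, the text names the 3 largest called falls and rises at 24 h in each list, genes within 100 kb of a member called at 2 h or 24 h (these averaging at least 1 CPM), and the 3 genes most similar in course to each member except Vpreb2. Other list genes, and Top3b, were named after their values were seen. Alternatives were DESeq2 1.42.0 and its size factors, library totals, other filters, the replicate block, smaller models and leaving out each replicate. Other assays of the study were not analysed here.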

Additional observations from a re-analysis of the deposited data

How the results depend on the processing

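Some values near 0 that were not called changed sign under other settings. Cd79b at 30 min, for example, was 0.03 in the main model and -0.04 without 30 min replicate 2. Against 0 h, member fold changes were refitted at 30 min, 2 h, 6 h and 24 h only. Steps between induced times were also refitted. Calls against 0 h at the remaining times, which include every call of Vpreb2, were not tested under other settings. Of the 620 refitted values of member log2 fold changes, 616 kept their side of the threshold and no called value reversed. The exceptions were Vpreb3 at 6 h, which was not called with library totals only (-0.999) and which ran from -1.11 to -0.91 as single replicates were left out, and Cd79a at 24 h, not called with library totals only (0.87). That scaling left 1 member called up at 24 h, and 2 regulators called down in place of 1. With at least 10 counts in every library, Vpreb1 and Vpreb2 were not tested, which left 1 member called down at 2 h. Vpreb2 against Vpreb1 at 2 h, 1.50 on the log2 scale, missed the threshold with a prior count of 0.5 (1.40) and ran from 1.26 to 1.74 without single replicates, missing it without 0 h replicate 1 and without 2 h replicate 2. Added after seeing the data, an ordinary fit of each pair alone took Vpreb1 against Igll1 at 30 min (0.58) past the threshold. Leaving out the 12, 18 and 21 h libraries, also added then, changed no call of a member at 30 min, 2 h, 6 h or 24 h. The other times were not refitted in this way.

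On linear CPM the half-maximal times were 0.397 h for Igll1, 0.600 h for Vpreb1, 0.898 h for Vpreb3, 17.5 h for Cd79a and 8.51 h for Cd79b, while that of Vpreb2 moved by less than its replicates differed. On the log2 scale, without replicate 1 or 2, the times ran from 1.46 to 1.61 h for Igll1, 1.16 to 1.66 h for Vpreb3, 14.7 to 15.4 h for Cd79a and 0.916 to 8.49 h for Vpreb2. The cause of these differences was not tested.

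The deviations of same-numbered libraries correlated at 0.0195 on average over 45 pairs of times (-0.625 to 0.418). With so wide a range, the average does not settle whether replicate numbers pair the libraries at some times. With the replicate block, Igll1 had a log2 fold change of -4.07 at 2 h and Cd79b one of 2.29 at 24 h. No refitted call of a member changed with this block. Depth limits Vpreb2 at all times and Vpreb1 from 12 h on.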
